A study of Mus musculus with 8 samples.

Results

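Paneth cells are the granule-filled secretory cells at the base of small intestinal crypts, and 8 genes of their antimicrobial and secretory programme are described here: Lyz1, Lyz2, Ang4, Itln1, Pla2g2f, Mmp7, Habp2 and Nupr1. They were chosen by name, with earlier results of these data known. Where a gene had several probes, the brightest on average across the 8 arrays stands for it. All 8 had a probe among 19057 named genes, and 7 of them were among the 12466 genes bright enough to be tested. The cultures were intestinal organoids, 3-dimensional epithelial cultures grown from crypts, of C57Bl mice aged 2 to 3 months that carried Lgr5-EGFP-IRES-CreER and Apc flox/flox. Each group held 4 samples, taken at day 20 or at day 7 after tamoxifen was added, and each sample was hybridised to 1 Illumina array. All cultures of both groups had tamoxifen for 2 days, after which the Wnt agonist R-Spondin1 was left out, for 18 days in the day 20 group and for 5 days in the day 7 group. The Cre is driven by the stem cell gene Lgr5, so deletion starts in stem cells, and other cells lose Apc as their descendants. No culture with intact Apc was measured, so time since deletion, time without R-Spondin1 and time in culture cannot be told apart. Whether the samples of one day came from separate cultures or animals is not stated in the labels. The p-values here measure the spread between samples alone, which may be technical in part or, at day 7, as a whole.

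Paneth cells release lysozyme, alpha-defensins, phospholipases, lectins and ribonucleases into the crypt, where these limit bacterial growth, and they also give Wnt, Notch and EGF signals to the neighbouring stem cells. Wnt signalling through beta-catenin and TCF factors is needed for Paneth cells to mature and to stay at the crypt base. Apc limits beta-catenin, and Paneth cells are known to be more frequent or misplaced in Apc-mutant mouse intestine.

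Values are log2 intensities that the authors had normalized between arrays. A value above 6.796 was taken as above background, and changes of genes near that limit are compressed. On the arrays, the X-inactivation transcript Xist was at 6.68, 10.29, 10.41 and 6.74 on day 20 replicates 1 to 4, against 9.39 to 10.01 on the 4 day 7 arrays. Eif2s3y, a gene of the Y chromosome, was at 8.34 and 8.51 on day 20 replicates 1 and 4, and at 6.66 to 6.73 on the other 6 arrays. Day 20 replicates 1 and 4 thus stand apart from all other arrays by their sex-linked transcripts, which read as male there and as female on the other 6. Day 20 held both kinds and day 7 only Xist-positive arrays, so the sex of the source is partly confounded with day. Results are also given for the other 6, the Xist-positive arrays, where they differ.

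Against day 7, 1 of the 7 tested genes rose at day 20 and none fell (limma, Benjamini-Hochberg adjusted p under 0.05 over all tested genes). Over all genes 4.85% passed that test, 2.51% upward and 2.33% downward. At an unadjusted p under 0.05, which 20.4% of all tested genes had, Habp2 was lower as well. The gene that rose was Mmp7, the protease that activates alpha-defensins in mouse Paneth cells. The median difference of the 7 genes, day 20 minus day 7, was -0.35 on the log2 scale, beside 0.005 over all tested genes. Of the 7 differences 6 were below 0, as were 6022 of all 12466. On the Xist-positive arrays, 2 of day 20 and 4 of day 7, the median was -0.01, and again Mmp7 alone passed. Day 20 replicates 1 and 4, left out there, were both below replicates 2 and 3 in 6 of the 7 genes. In organoid RNA, the number of Paneth cells and the RNA per Paneth cell cannot be told apart. Lyz1 and Ang4 spread more widely between the day 20 arrays than between the day 7 arrays, and replicate 4 was the lowest of the day in 6 of the 7 genes.

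**Figure D1:**
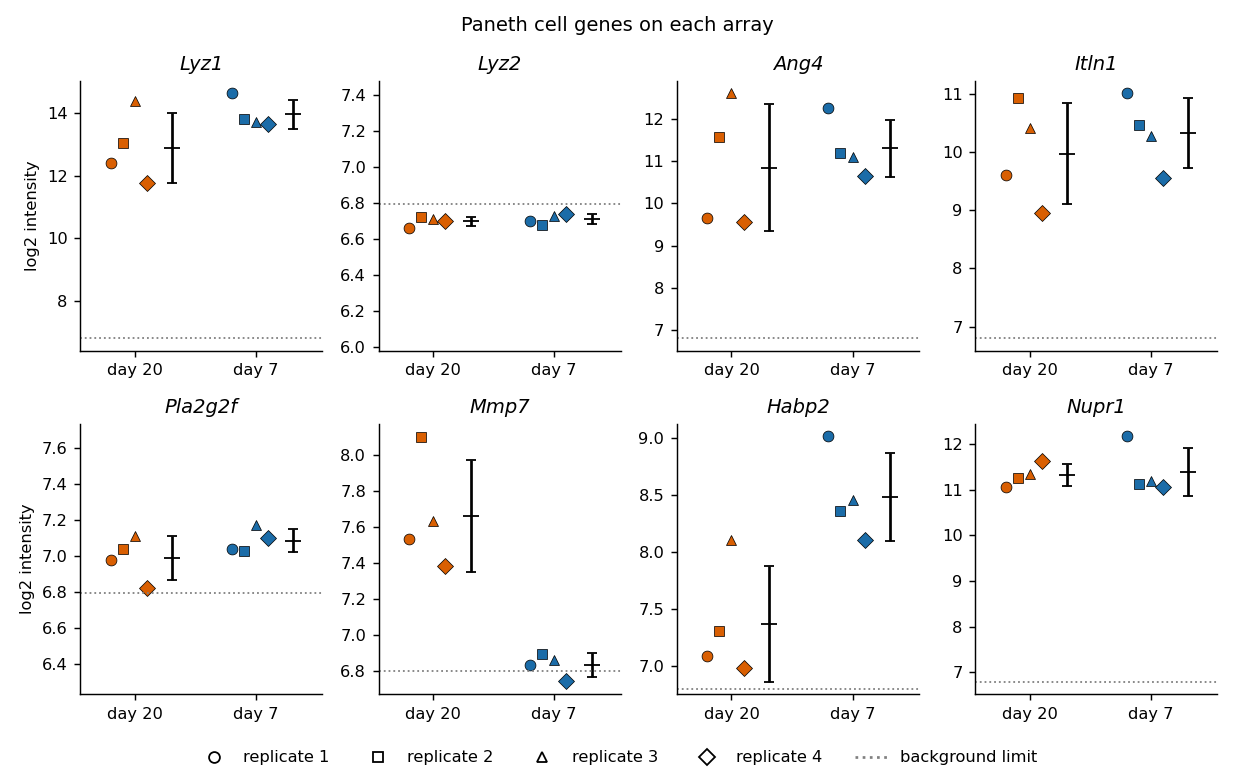
Log2 intensity of the 8 Paneth cell genes on each array, day 20 (orange, left) and day 7 (blue, right); symbols give the replicate number, bars the mean ± SD of 4 arrays, the dotted line the background limit of 6.796, and the vertical scale differs between panels. Mmp7 lies higher on all 4 day 20 arrays than on any day 7 array, Lyz2 lies below the limit on all 8, and Lyz1, Ang4 and Itln1 spread more widely at day 20 than at day 7.

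Lysozyme is the classical Paneth cell product, a secreted enzyme that cuts bacterial cell walls. In mice Lyz1 is the Paneth cell form, and its neighbour Lyz2 is the form of macrophages and other myeloid cells. The genes lie next to each other on chromosome 10, with 0 annotated genes between them in the GRCm38.p6 annotation of RefSeq. Their promoters are shown because these neighbours are alike in sequence, yet Lyz1 was above the background limit on all arrays and Lyz2 on none. The sequences, credited to RefSeq, run 5′ to 3′ on the minus strand from 250 bases before the annotated start to 20 bases past it, chr10:117292849-117293118 for Lyz1 and chr10:117282253-117282522 for Lyz2 (GRCm38.p6), and capitals mark bases that are not identical in an alignment of these sequences.
Lyz1: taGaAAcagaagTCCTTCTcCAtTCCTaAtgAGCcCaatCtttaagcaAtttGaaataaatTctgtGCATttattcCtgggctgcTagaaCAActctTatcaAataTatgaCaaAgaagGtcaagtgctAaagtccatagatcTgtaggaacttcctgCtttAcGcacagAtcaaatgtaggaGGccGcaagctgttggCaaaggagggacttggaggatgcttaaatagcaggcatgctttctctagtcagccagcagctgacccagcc
Lyz2: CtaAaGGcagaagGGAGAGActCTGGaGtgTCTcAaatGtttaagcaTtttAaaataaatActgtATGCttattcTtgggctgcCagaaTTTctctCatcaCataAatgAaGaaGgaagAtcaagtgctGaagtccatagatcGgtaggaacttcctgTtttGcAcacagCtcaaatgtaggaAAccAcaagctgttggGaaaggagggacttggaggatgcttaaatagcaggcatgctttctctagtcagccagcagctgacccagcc
Of 272 aligned positions 220 were identical (80.9%), and in the last 100 positions, around the start, 95 were.

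Lyz1 was at 12.40, 13.04, 14.37 and 11.75 on day 20 replicates 1 to 4, against 14.63, 13.81, 13.72 and 13.65 on day 7 replicates 1 to 4. Of the day 20 arrays, replicate 3 lay within the range of day 7, while replicates 1, 2 and 4 lay below it. Lyz1 averaged 12.89 ± 1.12 at day 20 and 13.95 ± 0.46 at day 7 (SD over 4 arrays each), a difference of -1.06 on the log2 scale (95% confidence interval -2.24 to 0.12; limma adjusted p = 0.292), which does not exceed the spread between arrays. The difference was -0.68 without day 20 replicate 4 and -1.56 without replicate 3, neither of which passed. It was -0.25 on the Xist-positive arrays (adjusted p = 0.839). The 3 Lyz1 probes differed by -1.06, -1.37 and -0.70, and replicate 4 was the lowest and replicate 3 the highest day 20 array on each of them.

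Lyz2, in contrast, was at 6.66 to 6.72 on the day 20 arrays and at 6.68 to 6.74 on the day 7 arrays. All 3 Lyz2 probes lay below the background limit on all 8 arrays, so the gene was not tested and no fold is given. Whether these probes respond to Lyz2 RNA was not tested. Of 10 leukocyte markers measured, 4 were below the limit on every array, among them Ptprc, the pan-leukocyte gene encoding CD45, and the mean level of the list was 6.99 to 7.07 at day 20 and 6.92 to 6.97 at day 7. The 2 bright enough to be tested were Cd14, at 9.13 to 9.91 on day 20 arrays and 8.54 to 8.96 on day 7 arrays (limma adjusted p = 0.0599), and Csf1r, at 6.86 to 7.00 on day 20 arrays and 6.84 to 7.09 on day 7 arrays (adjusted p = 0.833). With the replicate block, with an intensity trend and robust variance, or with the background mode subtracted, 1 leukocyte marker was higher.

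Ang4 encodes angiogenin 4, a ribonuclease of Paneth cell granules with bactericidal activity in mice. It was at 9.65, 11.58, 12.61 and 9.56 on day 20 replicates 1 to 4, against 12.26, 11.20, 11.10 and 10.65 on day 7 replicates 1 to 4. Replicates 1 and 4 of day 20 lay below all day 7 arrays, and replicate 3 above all of them. The mean was 10.85 ± 1.5 at day 20 and 11.30 ± 0.68 at day 7 (SD over 4 arrays each), with a log2 difference of -0.45 (95% confidence interval -2.06 to 1.15; limma adjusted p = 0.782). Without replicates 1 and 4, on the Xist-positive arrays, the difference was 0.79 and did not pass (adjusted p = 0.463). At day 20 the highest array stood 8.28-fold above the lowest, a spread exceeded by only 7 of the 12466 tested genes when measured as the SD.

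Of the related ribonuclease genes, Ang3 and Ang5 were below the limit on all arrays and Ang2 exceeded it on 1. Ang, encoding angiogenin, was at 8.68 to 8.98 at day 20 and 8.88 to 10.16 at day 7 (difference -0.64, limma adjusted p = 0.256), so its day 20 arrays lay within 0.30 of each other while those of Ang4 spanned 3.05. These genes are similar in sequence, and whether their probes detect each other's transcripts was not tested.

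Itln1 encodes intelectin 1, a secreted lectin that binds microbial sugars and is made by Paneth and goblet cells. Its level was 9.60, 10.93, 10.42 and 8.95 on day 20 replicates 1 to 4, against 11.01, 10.46, 10.27 and 9.55 on day 7 replicates 1 to 4. The days overlapped throughout: replicate 2 of day 20 was close to the highest day 7 array and replicate 4 was below the lowest. The difference was -0.35 (95% confidence interval -1.39 to 0.69; limma adjusted p = 0.736), and 0.35 on the Xist-positive arrays (adjusted p = 0.718).

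Pla2g2f encodes a secreted phospholipase A2 of the same group as Pla2g2a, the phospholipase that attacks bacterial membranes. It lay just above the limit, at 6.98, 7.04, 7.11 and 6.82 on day 20 replicates 1 to 4, against 7.04, 7.03, 7.17 and 7.10 on day 7 replicates 1 to 4. The difference of -0.10 (95% confidence interval -0.27 to 0.07) did not pass (limma adjusted p = 0.516), and at this signal a larger change would be compressed. Pla2g2a itself is disrupted in C57BL/6 mice and is annotated with a non-coding transcript, but its probe was bright. It was at 11.02, 12.42, 11.79 and 9.96 on day 20 replicates 1 to 4, against 11.29 to 12.17 on the day 7 arrays, so that replicates 1 and 4 of day 20 lay below all day 7 arrays, as they did for Lyz1 (difference -0.38, adjusted p = 0.728).

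Mmp7 encodes matrilysin, which in mouse Paneth cells cuts pro-defensins into their active form and is a known target of Wnt signalling. It was at 7.53, 8.10, 7.63 and 7.38 on day 20 replicates 1 to 4, against 6.83, 6.89, 6.86 and 6.74 on day 7 replicates 1 to 4. All 4 day 20 arrays were above all day 7 arrays, without overlap, as was the case for 6.27% of all tested genes (13.1% counting both directions). The mean was 7.66 ± 0.31 at day 20 and 6.83 ± 0.06 at day 7 (SD over 4 arrays each), so Mmp7 rose by 0.83 on the log2 scale, or 1.78-fold (SE 0.14, 95% confidence interval 0.51 to 1.15; limma adjusted p = 0.0164). On day 7, 3 of 4 arrays exceeded the background limit and by little, so background limits this size, and with the background mode subtracted the difference was 2.13. The call was lost without day 7 replicate 1 (difference 0.83, adjusted p = 0.0517) and kept on the Xist-positive arrays (1.03, adjusted p = 0.0159).

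Habp2 encodes a serine protease that binds hyaluronan and is best known from liver and plasma. It was at 7.09, 7.31, 8.10 and 6.98 on day 20 replicates 1 to 4, against 9.01, 8.36, 8.45 and 8.10 on day 7 replicates 1 to 4. The highest day 20 array, replicate 3, met the lowest day 7 array, and the other day 20 arrays were lower than any of day 7. The mean was 7.37 ± 0.51 at day 20 and 8.48 ± 0.38 at day 7 (SD over 4 arrays each), and the difference of -1.11 (95% confidence interval -1.74 to -0.48) narrowly missed the threshold (limma adjusted p = 0.0592). It passed without day 20 replicate 3 (-1.35, adjusted p = 0.0171), with the background mode subtracted (-1.92, 0.0288) and with an intensity trend and robust variance (0.0475), and was -0.77 on the Xist-positive arrays (0.258). A further Habp2 probe above background differed by -0.70, and the remaining one lay near the limit.

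Nupr1 encodes a small nuclear protein that many cell types induce under stress. Its level was 11.05, 11.25, 11.33 and 11.63 on day 20 replicates 1 to 4, against 12.16, 11.13, 11.18 and 11.06 on day 7 replicates 1 to 4. Nupr1 was the only tested one of the 8 genes whose highest day 20 array was replicate 4, the lowest array of the other 6. The difference was -0.07 (95% confidence interval -0.63 to 0.50; limma adjusted p = 0.919), and day 7 replicate 1 stood above the other 7 arrays. Without that array it was 0.19, which did not pass either (adjusted p = 0.517). Of 10 tested genes of the ATF4 stress response, the arm that also induces Nupr1, 3 rose and none fell, with a median of 0.42. Over all tested genes 2.51% rose and 2.33% fell. Trib3, a pseudokinase gene, rose by 0.80 (limma adjusted p = 0.00932), Chac1, a glutathione-degrading enzyme gene, by 0.55 (0.02) and Ddit4, an mTORC1 inhibitor gene, by 1.59 (0.0145). Atf3 went the other way, at -0.57 (limma adjusted p = 0.0883), the 1 difference of the 10 below 0. With an intensity trend and robust variance, 1 of the 10 was lower. On the Xist-positive arrays 2 of the 10 rose.

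**Figure D2:**
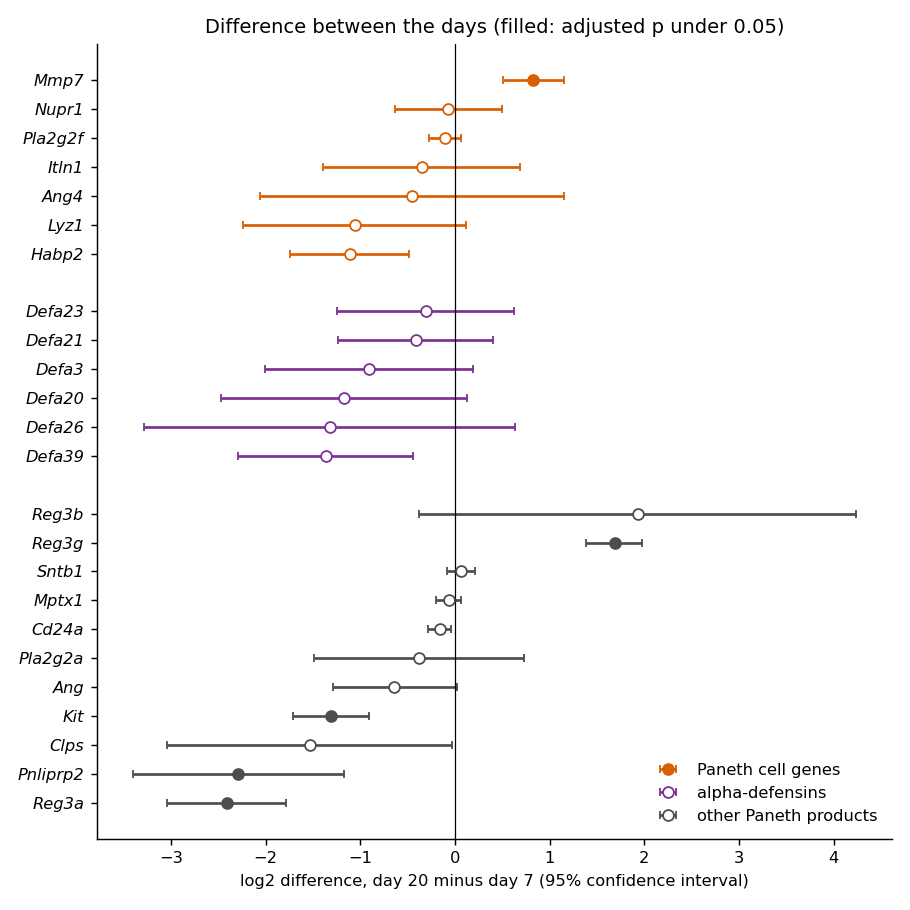
Log2 difference, day 20 minus day 7, with its 95% confidence interval, for the tested Paneth cell genes (orange), alpha-defensins (purple) and other Paneth cell products (grey); filled circles passed the limma test. Mmp7 and Reg3g lie above 0 and pass, Kit, Pnliprp2 and Reg3a lie below 0 and pass, and the intervals of Lyz1, Ang4, Itln1 and 5 of the 6 defensins include 0.

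The alpha-defensins, or cryptdins, are the main antimicrobial peptides of mouse Paneth cell granules and the substrates of Mmp7. Of 8 such genes with a named probe, 6 were tested, and none passed limma's test in either direction (1, Defa39, at an unadjusted p under 0.05). The median difference was -1.04, and all 6 differences were below 0, beside 6022 of all 12466 tested genes. Defa20 was at 13.04, 14.14, 15.13 and 12.28 on day 20 replicates 1 to 4, against 15.43, 14.90, 14.53 and 14.40 on day 7 replicates 1 to 4 (difference -1.17, 95% confidence interval -2.47 to 0.13, limma adjusted p = 0.294). Defa26 had the widest range, with 9.58, 11.27, 12.24 and 8.41 on day 20 replicates 1 to 4, against 10.83 to 13.20 at day 7 (difference -1.32, adjusted p = 0.438). In both genes, day 20 replicate 3 lay within the day 7 range and replicates 1 and 4 below it. Replicate 2 lay below that range for Defa20 and within it for Defa26. Defa39, at 6.87 to 8.05 on day 20 arrays and 8.30 to 9.93 on day 7 arrays, was the only one of the 6 with no overlap between the days, beside 6.84% of all tested genes that lay lower at day 20 without overlap (difference -1.36, adjusted p = 0.101). On the Xist-positive arrays, the differences were -0.18 for Defa20, -0.04 for Defa3, 0.06 for Defa26 and -1.03 for Defa39, and none passed. Alpha-defensin genes are near copies of each other, so their probes may share transcripts and the 6 genes may not be separate measurements.

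The promoters of Defa20 and Mmp7, substrate and protease, are shown because cryptdin genes and Mmp7 are known TCF targets in mice, and Mmp7 rose while the 6 cryptdin differences were below 0 and did not pass. Both run 5′ to 3′ on the plus strand from 250 bases before the annotated start to 20 bases past it (for Mmp7 the first of 2 annotated starts), chr8:21509008-21509277 for Defa20 and chr9:7691840-7692109 for Mmp7 (RefSeq, GRCm38.p6), with capitals for the TCF motif CTTTGAT, found here as its reverse complement ATCAAAG.
Defa20: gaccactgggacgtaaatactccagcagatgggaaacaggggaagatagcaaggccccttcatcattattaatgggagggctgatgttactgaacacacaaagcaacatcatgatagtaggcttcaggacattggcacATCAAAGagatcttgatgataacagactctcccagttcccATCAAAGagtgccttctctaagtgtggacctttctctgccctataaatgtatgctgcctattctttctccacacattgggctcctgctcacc
Mmp7: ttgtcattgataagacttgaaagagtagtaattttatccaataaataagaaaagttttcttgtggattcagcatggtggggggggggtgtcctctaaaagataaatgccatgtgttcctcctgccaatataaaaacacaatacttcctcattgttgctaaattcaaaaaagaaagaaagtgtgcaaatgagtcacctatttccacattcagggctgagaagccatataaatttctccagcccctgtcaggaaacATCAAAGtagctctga
The search took CTTTGAT and CTTTGTT on both strands in windows of 300 bases, from 250 before to 50 after each start. Defa20 held 2 matches to CTTTGAT, as did Defa21, Defa23 and Defa31, the other alpha-defensin genes with a window in the table, and Mmp7 held 1, beginning 4 bases past its start. Of 32851 promoter windows in the table, 3.73% held CTTTGAT, 33 held it at least 2 times and 5.85% held CTTTGTT. Windows of Lyz1, Lyz2, Ang4, Itln1, Nupr1, Habp2 and Pla2g2f held neither motif. The motifs were chosen with the sequences and the values in view, and a match describes these letters only.

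Between the day 20 arrays, 6 of the 7 tested Paneth cell genes had an SD above 0.12, the median of all tested genes, and Pla2g2f was at that median. The SD was 1.5 for Ang4, 1.12 for Lyz1, 0.88 for Itln1, 0.51 for Habp2, 0.31 for Mmp7 and 0.24 for Nupr1. A larger SD was found in 0.0562% of tested genes for Ang4, 0.144% for Lyz1, 0.369% for Itln1 and 2.01% for Habp2. These genes also spread at day 7, but less: the SD was 0.68 for Ang4, 0.46 for Lyz1, 0.60 for Itln1 and 0.38 for Habp2. Nupr1 ran the other way, with 0.24 at day 20 and 0.52 at day 7. Among the alpha-defensins, the SD at day 20 was 1.71 for Defa26, larger than that of all but 1 tested gene, 1.25 for Defa20 and 1.08 for Defa3. The SD shares and ranks were taken over all tested genes, those near background included, and were not matched for brightness. The difference in spread between the days was not tested. Leaving out 1 day 20 array at a time gave an SD of 0.65 to 1.36 for Lyz1, 1.14 to 1.74 for Ang4, 0.67 to 1.03 for Itln1 and 0.17 to 0.62 for Habp2. Without day 20 replicate 3 the SD of Habp2 was 0.17, below its day 7 value. Between the Xist-positive day 20 arrays, replicates 2 and 3, it was 0.94 for Lyz1, 0.73 for Ang4, 0.56 for Habp2 and 0.36 for Itln1, the last below its day 7 value.

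**Figure D3:**
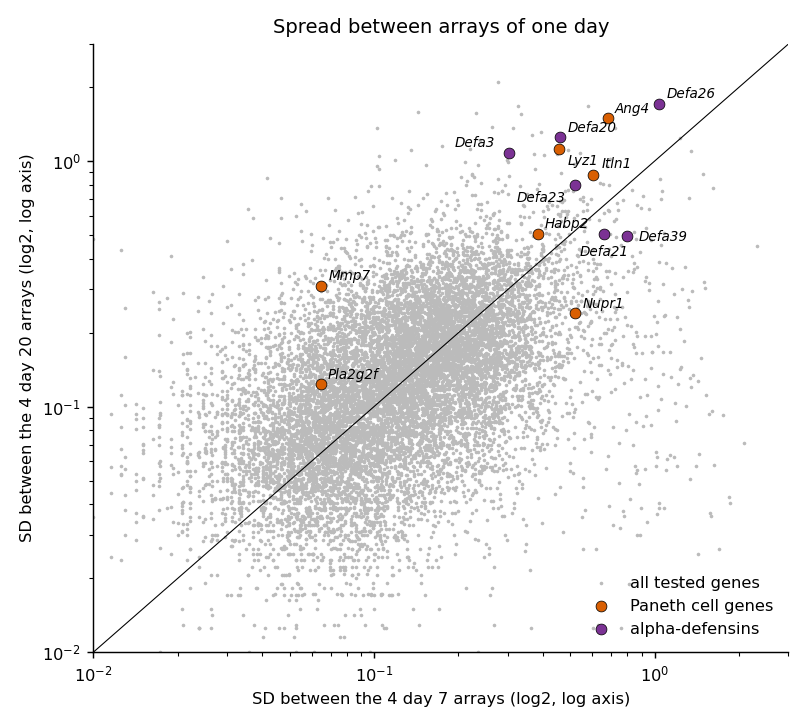
SD between the 4 day 20 arrays (vertical) against SD between the 4 day 7 arrays (horizontal), both of log2 intensity on log axes, for all 12466 tested genes (grey), with the 7 tested Paneth cell genes in orange and 6 alpha-defensins in purple; the line marks equal SD. Lyz1, Ang4, Itln1, Defa3, Defa20, Defa23 and Defa26 lie near the top edge of all genes and above the line, and Nupr1, Defa21 and Defa39 lie below it.

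The same day 20 arrays were high or low in nearly all of these genes. Replicate 4 was the lowest day 20 array in 6 of the 7 tested Paneth cell genes and in 6 of 6 alpha-defensins, beside 24.2% of all tested genes. Replicate 3 was the highest in 4 of the 7 and in 6 of 6 alpha-defensins, beside 24.9% of all genes, and replicate 2 was the highest for Itln1 and Mmp7. Both held together in 4 of the 7 and in 6 of 6, beside 8.9% of all genes. Over single probes, 16 of 20 measured probes of both groups had replicate 4 lowest together with replicate 3 highest. Day 20 replicates 1 and 4, which lacked Xist signal, were both below replicates 2 and 3 in 6 of 7 Paneth cell genes and 6 of 6 alpha-defensins, as they were in 22% of all genes, while 19.3% of all genes showed the opposite. The mean of replicates 2 and 3 stood above that of replicates 1 and 4 by 2.49 for Ang4, 1.63 for Lyz1, 1.40 for Itln1, 0.67 for Habp2 and 0.41 for Mmp7 on the log2 scale, and by -0.05 for Nupr1. These genes share arrays, so the counts are not separate observations, and whether the Xist difference, the source animals or another property of the cultures goes with the Paneth cell values cannot be told apart. Markers of other cell types shared part of this order. Replicate 3 was the highest day 20 array in 5 of 6 tested goblet cell markers, with replicate 4 also lowest in 3 of them, and replicates 1 and 4 were both below 2 and 3 in 4 of the 6. Replicate 4 was the lowest in 5 of 7 enteroendocrine and 4 of 5 enterocyte markers, most of them near background at day 20. At day 7, where all arrays had Xist signal, replicate 1 was the highest array in 5 of the 7 genes and in 6 of 6 alpha-defensins, beside 22.3% of all genes.

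**Figure D4:**
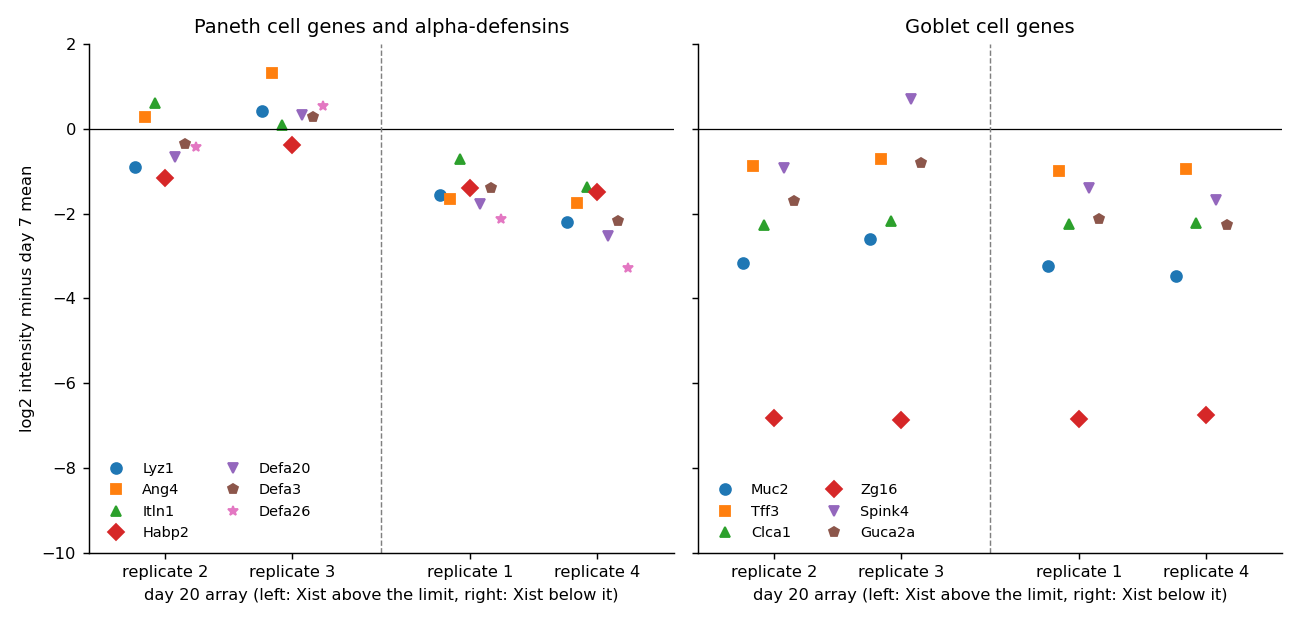
Log2 intensity on each day 20 array minus the mean of the 4 day 7 arrays, for 4 Paneth cell genes and 3 alpha-defensins (left) and for 6 goblet cell genes (right); the dashed line separates replicates 2 and 3, with Xist above the background limit, from replicates 1 and 4, with Xist below it. On replicate 3, 6 of the 7 genes on the left lie at or above 0 and all 7 lie below 0 on replicates 1 and 4. Of the goblet cell genes, Spink4 lies at 0.70 on replicate 3 and -1.68 on replicate 4, and the other 5 lie below 0 on all 4 arrays, with Tff3 at -0.71, Guca2a at -0.80 and Muc2 at -2.60 on replicate 3.

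Goblet cells are the mucus-secreting sister lineage, and 4 of the 6 tested goblet cell markers fell at day 20 while none rose. They were Zg16, Muc2, Clca1 and Tff3, of which 2 passed on the Xist-positive arrays. Over all tested genes 2.51% rose and 2.33% fell, the shares to set beside this and the later counts of this paragraph. Muc2, the main intestinal mucin, was at 7.12, 7.20, 7.76 and 6.89 on day 20 replicates 1 to 4, against 9.45 to 11.52 on the day 7 arrays (difference -3.12, limma adjusted p = 0.0047). Relative to its own day 7 mean, Muc2 was at -2.60 on day 20 replicate 3, where Lyz1 was at 0.42. Muc2, Guca2a and Spink4 had the same order of day 20 arrays as Lyz1, with replicate 3 highest, then 2, 1 and 4. Guca2a, encoding the peptide guanylin, was at 9.45, 9.87, 10.77 and 9.30 on day 20 replicates 1 to 4, against 10.95 to 12.84 at day 7 (difference -1.73, adjusted p = 0.0766). Spink4, a secreted protease inhibitor gene, was at 9.04, 9.51, 11.14 and 8.76 on day 20 replicates 1 to 4, against 10.03 to 11.08 at day 7 (adjusted p = 0.395). All 7 tested enteroendocrine markers fell, the 6 with the smallest adjusted p being Chgb, Ghrl, Gip, Cck, Chga and Insm1, and 4 of 5 tested enterocyte markers fell, namely Sis, Apoa1, Apoa4 and Apoc3. Chga, Cck, Sst and Apoa4 were above the background limit on 0 day 20 arrays and on 4 day 7 arrays. They entered the test through day 7 alone, so a fall was the only call open to them. With no filter, 7 enteroendocrine and 4 enterocyte markers were lower. Chgb, a granule protein gene of enteroendocrine cells, was at 6.84 to 7.60 on day 20 arrays and 10.85 to 11.64 on day 7 arrays, and Sis, the sucrase-isomaltase gene of enterocytes, at 6.94 to 7.03 on day 20 arrays and 10.91 to 14.57 on day 7 arrays. Of 8 tested stem cell markers 4 fell, Lgr5, Olfm4, Slc14a1 and Rgmb, and on the Xist-positive arrays 2 did. Of 8 stromal markers 4 were tested and none passed limma's test (1, Acta2, at an unadjusted p under 0.05); Col1a1 was below the limit on all arrays. With the strict filter, with the background mode subtracted or without day 7 replicate 4, 1 stromal marker was lower. Whether the Paneth cell values moved with these other lineages through the makeup of the cultures was not tested.

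Other products of Paneth cells were mixed: of 11 tested, 1 rose and 3 fell (median -0.38), beside 2.51% of all tested genes that rose and 2.33% that fell. Kit, a receptor tyrosine kinase on the surface of Paneth and goblet cells, was at 6.94, 7.06, 7.25 and 6.67 on day 20 replicates 1 to 4, against 7.99 to 8.59 at day 7. It fell by 1.31 (SE 0.17, limma adjusted p = 0.00553) with 3 day 20 arrays above background, with a difference of -1.14 on the Xist-positive arrays. Pnliprp2, a pancreatic-type lipase, was at 7.21, 9.15, 9.10 and 7.17 on day 20 replicates 1 to 4, against 10.22 to 10.65 at day 7, so that replicates 1 and 4 were again low and all 4 lay below day 7. It fell by 2.29 (adjusted p = 0.0372), a call that was lost on leaving out day 20 replicates 1 (0.0731) or 4 (0.0756), or day 7 replicates 1 (0.0853), 2 (0.0691), 3 (0.0878) or 4 (0.0735), and that held at -1.32 on the Xist-positive arrays (0.0102). Clps, encoding its cofactor colipase, had 7.96, 9.27, 10.57 and 7.57 on day 20 replicates 1 to 4, against 9.73 to 11.37 at day 7 (difference -1.53, adjusted p = 0.236). Of the Reg lectins that Paneth cells and enterocytes secrete, Reg3g was at 8.48 to 8.89 on day 20 arrays and 6.75 to 7.25 on day 7 arrays, and it rose by 1.69 (adjusted p = 0.000448). Reg3a was at 7.08 to 7.34 on day 20 arrays and 8.97 to 10.46 on day 7 arrays, and it fell by 2.41 (adjusted p = 0.00305). Reg3b was at 13.12 to 14.17 on day 20 arrays and 9.06 to 14.71 on day 7 arrays, and its difference of 1.93 did not pass (adjusted p = 0.332). Its SD was 0.45 at day 20 and 2.33 at day 7, where no tested gene had a larger one. Replicate 4 was the highest day 20 array for Reg3b, and in none of these Reg genes was it the lowest.

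Genes that specify or place Paneth cells did not pass limma's test in either direction, although 5 of 10 tested had an unadjusted p under 0.05, beside 20.4% of all tested genes. Their median difference was -0.03. Fgfr3, a growth factor receptor, differed by -0.30 (limma adjusted p = 0.0529), Spdef, a factor of goblet and Paneth cell maturation, by -0.30 (0.0998), and Ephb3, the receptor that holds Paneth cells at the crypt base, by -0.17 (0.134). Sox9, which Paneth cells need to form, was at 12.56 to 13.23 at day 20 and 13.02 to 13.39 at day 7 (adjusted p = 0.245). Of the 5 genes with an unadjusted p under 0.05, Xbp1 alone was higher at day 20. It was at 12.06 to 12.28 at day 20 and 11.53 to 12.24 at day 7 (difference 0.34, adjusted p = 0.227). Over the whole list, 6 of the 10 differences were below 0. With an intensity trend and robust variance, or with the background mode subtracted, 2 of the 10 were lower. None of 6 tested niche ligands passed, and 1, Wnt3, had an unadjusted p under 0.05; the 3 with the smallest adjusted p were Wnt3 at -0.13 (0.234), Dll4 at -0.10 (0.31) and Wnt9b at -0.08 (0.411), all close to background. None of 9 tested genes of granule handling, bacterial sensing and autophagy passed, and 0 had an unadjusted p under 0.05, the closest being Atg16l1 at 0.20 (0.28), Rab2a at -0.17 (0.325) and Nod2 at 0.10 (0.486).

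Likeness to Lyz1 was measured as the root mean square difference between profiles over the 8 arrays, each centred on its own mean. The closest of all tested genes was Defa20, at 0.19, followed by Spink4 at 0.20, Defa3 at 0.22 and Clps at 0.36. Outside the marker lists the 6 closest were Bmp4 at 0.36, Tgfbi at 0.38, Camk2n1 at 0.42, Prox1 at 0.45, Tcf4 at 0.47 and Nkd1 at 0.48. Bmp4, encoding a secreted growth factor, was at 6.97, 7.89, 8.38 and 6.82 on day 20 replicates 1 to 4, against 7.99 to 8.61 at day 7. Nkd1, a feedback inhibitor of Wnt signalling, was at 9.33, 11.08, 11.37 and 8.54 on day 20 replicates 1 to 4, against 10.99 to 11.75 at day 7. Neither passed the test between the days (limma adjusted p = 0.199 and 0.259). Both were picked for their likeness to Lyz1, which did not pass either, so this is no separate result.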

How the data were processed

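Biotin-labelled cRNA from 8 organoid samples, 4 per day, was hybridised to Illumina mouse arrays, per the labels' protocols. The authors' deposited values are log2 intensities for 45281 probes. How the authors corrected background and normalized, and with what software, is not given in the sources used here. Every array has the same median, 6.81, and the same 25% and 75% quantiles, 6.71 and 7.43, as quantile normalization leaves them. A second deposited table, of non-normalized intensities, was not used, because its 16 per-sample columns match no sample label.

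Probes were named through the platform annotation (34885 with 1 symbol, 18 with several, 10378 unnamed), and each gene took its brightest probe by mean. Background was placed at the mode of the values (6.7), and the limit of 6.796 leaves an upper tail of 0.05 of a normal distribution around it whose SD, 0.05837, came from values not above the mode. Genes above it on at least 4 of 8 arrays were tested with limma 3.58.1 (R 4.3.3; two-sided, no covariates, Benjamini-Hochberg). The fit was tested on simulated data. Figures were drawn with matplotlib 3.10.9.

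The genes and all lists were chosen with earlier results of these data known. By rule the text names all 8 genes, up to 6 called members of every other list or the 3 with the smallest adjusted p, the defining marker of each cell type and the 6 genes most like Lyz1; other list members named are given for their values on the day 20 arrays. Alternatives were the replicate number as a block, a strict filter (upper tail 0.01) or none, cyclic loess, array weights, an intensity trend with robust variance, the mean over probes, values less the background mode (offset 16), each array left out, and the Xist-positive arrays. Arrays carry no counts: precision is limited by how many there are and by signal over background.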

Additional observations from a re-analysis of the deposited data

Results flagged for a closer look

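In 4 of 48 sets of 4 arrays of one day, over Paneth cell genes, alpha-defensins and other Paneth cell products, 1 array lay far from the other 3 (gap over range above Dixon's critical value of 0.829), and chance gives about 1 in 20. Day 7 replicate 1 was the high array in 3 of them: Lyz1 at 14.63 (gap over range 0.837), Nupr1 at 12.16 (0.891) and Defa39 at 9.93 (0.969). Day 20 replicate 1 was the low array for Sntb1 at 6.75 (0.882), which is below the background limit.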

How the results depend on the processing

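Of the 7 tested Paneth cell genes, the number past the threshold was 2 in place of 1 with an intensity trend and robust variance and with the background mode subtracted, with 1 lower gene, Habp2, added in each. Leaving out 1 array at a time gave 0 to 2 genes, with 0 to 1 higher and 0 to 1 lower, the lowest without day 7 replicate 1 and the highest when day 20 replicate 3 was left out. The median difference of the 7 genes was -0.67 to -0.04 over these settings and -0.01 on the Xist-positive arrays.

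Over all tested genes, 604 passed, 313 higher and 291 lower at day 20. With 1 array left out the count was 301 (without day 7 replicate 1) to 579, with 140 to 251 higher and 161 to 328 lower. Omitting day 20 replicate 2 gave 373, omitting day 20 replicate 4 gave 353 and omitting day 7 replicate 3 gave 349. On the 6 Xist-positive arrays 141 genes were lower, with fewer arrays in the fit. With the replicate number as a block, 401 passed, 207 of them higher; the block left the call of each of the 7 Paneth cell genes as it was, and Mmp7 still passed (adjusted p = 0.0288). The numbers are not shown to pair the samples: deviations of same-numbered arrays from their day means correlated across genes at 0.119, 0.05, -0.01 and 0.142 for replicates 1 to 4.

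The sign of a difference that never passed changed for Nupr1, which ranged between -0.18 and 0.19 with 1 array left out (0.02 when it was day 20 replicate 1, 0.19 when it was day 7 replicate 1), and on the Xist-positive arrays for Ang4 (0.79), Itln1 (0.35) and Defa26 (0.06). Defa39 passed with the background mode subtracted (-2.25, adjusted p = 0.0404), and Pnliprp2 also missed the threshold with no filter (0.0575) and with an intensity trend and robust variance (0.0601). The cause of these changes was not tested. Signal close to background limits Mmp7, Pla2g2f, Habp2 and Kit, whose differences are compressed.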
